A study of Mus musculus with 3 samples.

Results

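The 8 genes described here encode the C1q-like proteins C1ql1 to C1ql4 and the cerebellins Cbln1 to Cbln4. They were chosen by gene symbol as members of these families, with earlier results of these data known. All 8 had a value, among 33101 gene names with a value in the deposited table. RNA came from the dentate gyrus, the part of the hippocampus whose granule cells send mossy fibres to CA3, taken by micro-dissection from both sides of the brain. The mice were adult C57BL/6 males, 8 to 10 weeks old. The series had 1 group of 3 libraries named as wild-type, described as biological replicates, with no second genotype, treatment or time. Poly(A) RNA was sequenced, and the table gave 1 FPKM value per gene entry for the whole group (fragments scaled by transcript length and by the mapped fragments of the library, so that levels can be compared between genes). No replicate error, test or counting interval could therefore be attached to any value, and the depth behind the values was unknown.

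C1q-like proteins and cerebellins are small secreted proteins that end in a globular C1q domain, the fold first described in complement component C1q, and that assemble into multimers. They sit in the synaptic cleft and tie a presynaptic protein to a postsynaptic receptor. Cerebellins bind neurexins on the axon side and delta glutamate receptors on the dendrite side, as in the cerebellum, where Cbln1 from granule cells holds parallel fibre synapses onto Purkinje cells. C1q-like proteins bind the adhesion receptor BAI3 (gene Adgrb3), and C1ql2 and C1ql3 are known as products of dentate granule cells that are released from mossy fibre axons and bind neurexin 3 and kainate receptor subunits at CA3 synapses.

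The 4 C1q-like genes are close enough in sequence that short reads might not always be assigned to the right one, so a coding stretch is shown to let the similarity be seen. It is the 60 coding bases in which C1ql1, C1ql3 and C1ql4 together came closest to C1ql2 within 1 exon, from the GENCODE M21 transcripts, read 5′ to 3′ on the coding strand, and capitals mark bases that differ from C1ql2. In GRCm38 the stretch lies in coding exon 1 of each gene, at chr1:120341723-120341782 (plus strand) for C1ql2, chr2:13010279-13010338 (minus strand) for C1ql3, chr11:102945884-102945943 (minus strand) for C1ql1 and chr15:99087211-99087270 (minus strand) for C1ql4.
C1ql2: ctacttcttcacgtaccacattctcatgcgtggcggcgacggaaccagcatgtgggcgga
C1ql3: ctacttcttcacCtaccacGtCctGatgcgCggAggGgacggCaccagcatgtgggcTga
C1ql1: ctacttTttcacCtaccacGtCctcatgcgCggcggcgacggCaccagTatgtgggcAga
C1ql4: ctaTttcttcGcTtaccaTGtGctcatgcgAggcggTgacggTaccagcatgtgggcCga

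In this stretch C1ql1 differed from C1ql2 at 8 bases, C1ql3 at 9 and C1ql4 at 10, and 46 of the 60 positions were the same in all 4 genes. A single pair can be closer elsewhere. Over the aligned coding sequences, identity was 68.5% to 74.0% for the 6 pairs of C1q-like genes, 58.4% to 71.5% for the 6 pairs of cerebellin genes and 45.3% to 54.6% for the 16 pairs across the families. The pair of C1q-like genes with the highest identity was C1ql1 and C1ql3 (74.0%), and C1ql2 and C1ql3 stood at 70.2%. The assignment of reads between these genes was not tested. The longest run of identical bases shared by transcripts of C1ql2 and C1ql3 was 38 bases, which was also the longest in any pair of the 28. It lies in exon 1 of both, at chr1:120341622-120341659 and chr2:13010402-13010439 in GRCm38, and is shown because any longer read meets at least 1 difference between the listed transcripts of these genes. The read length is not stated in the labels.
shared run: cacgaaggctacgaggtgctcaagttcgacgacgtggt

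**Figure D1:**
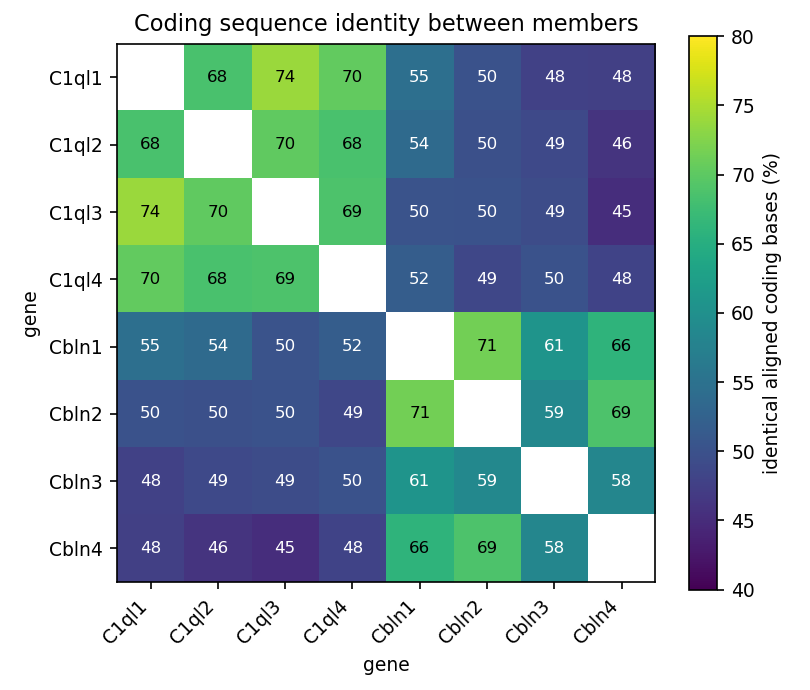
Percent of aligned coding bases that were identical for each pair of the 8 genes, rows and columns both being genes, with colour and number giving the percent. The 2 blocks on the diagonal are the C1q-like genes (68.5% to 74.0%) and the cerebellin genes (58.4% to 71.5%), and pairs across the families lie at 45.3% to 54.6%.

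C1ql2 and C1ql3 were abundant in the dissected dentate gyrus, C1ql1 was moderate, all 4 cerebellin genes were under 1 FPKM, and C1ql4 was listed at 0. The family summed to 219 FPKM, of which C1ql2 and C1ql3 made up 97.4%. Of the 8 genes, 3 were at 1 FPKM or more and 2 at 100 FPKM or more. Among 20135 protein-coding names, 56.4% were at 1 FPKM or more and 2.63% at 100 FPKM or more, and their median was 2.46 FPKM, against a median of 0.462 FPKM over the 8 members. The summed FPKM of the C1q-like genes was 205 times that of the cerebellin genes. Between the medians of the families the difference was 6.54 on the log2(FPKM + 0.1) scale, C1q-like over cerebellin, and it was 4.40 with a pseudocount of 1 FPKM. Because the tissue holds many cell types, fewer cells of a type and less RNA per cell cannot be told apart for any of these levels.

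**Figure D2:**
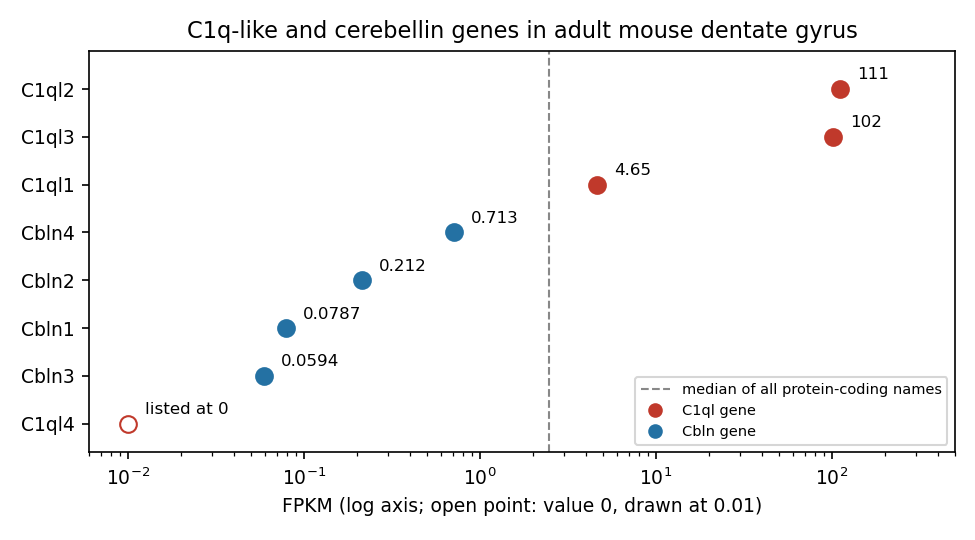
FPKM of the 8 genes on a log axis, 1 point per gene with its value beside it, C1q-like genes in red and cerebellin genes in blue, with no error bars because the table holds 1 value per gene. C1ql2 (111) and C1ql3 (102) stand apart from C1ql1 (4.65), the cerebellin genes lie between 0.0594 and 0.713, left of the dashed median of protein-coding names (2.46), and C1ql4 is an open point.

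C1ql2, the C1q-like gene best known for its restriction to dentate granule cells within the hippocampus, was the highest member at 111 FPKM. It ranked 459 of 20135 protein-coding names, above 97.7% of them. Its entry spans 122237159 to 122239748 on the plus strand of chromosome 1 in mm9, and its listed transcript, of 2000 nt in 2 exons, is the longest coding form in GENCODE M21. The nearest entries on the chromosome were much lower, with Steap3, a metalloreductase gene 75326 bases away, at 3.81 FPKM and Marco, a macrophage scavenger receptor gene 131366 bases away, listed at 0.

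C1ql3, whose protein acts with C1ql2 at mossy fibre synapses and which is also expressed in other forebrain excitatory neurons, followed at 102 FPKM, rank 518 and above 97.4% of protein-coding names. The ratio of C1ql2 to C1ql3 was 1.09, and with no replicate values it could not be judged whether these levels differ. The C1ql3 entry spans 12925084 to 12933374 on the minus strand of chromosome 2 in mm9, with a listed coding transcript of 2535 nt. Unlike C1ql2, it lies near a gene of similar level, since Pter, a phosphotriesterase-related gene 23052 bases away, was at 79.1 FPKM and Rsu1 on the other side was at 14.4 FPKM.

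C1ql1, best known as the climbing fibre organizer that inferior olive neurons supply to Purkinje cells, was at 4.65 FPKM, above 56.8% of protein-coding names. C1ql2 exceeded it 23.9-fold and C1ql3 exceeded it 21.9-fold. Its entry spans 102800578 to 102808002 on the minus strand of chromosome 11 in mm9 and lies wholly inside Gm17536, a predicted gene on the opposite strand listed at 0.242 FPKM. No strand-marking step appears in the library protocol, so reads of the pair cannot be assigned to either gene by strand. The nearest entries beyond it, Kif18b and the noncoding 2410004I01Rik, were at 0.0321 and 0.245 FPKM. Oligodendrocyte precursors are a known source of C1ql1 in brain. Of 5 precursor markers, 4 were at 1 FPKM or more, a level met by 56.4% of protein-coding names. The 5 markers summed to 28.2 FPKM, with Pdgfra at 10.1 FPKM, Gpr17 at 9.23 FPKM, Olig2 at 5.94 FPKM, Cspg4 at 2.56 FPKM and Neu4 at 0.392 FPKM. The part of precursor cells in the C1ql1 value was not tested.

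C1ql4, the family member studied mainly outside the brain, was listed at 0 in its single entry (98915117 to 98918248, minus strand of chromosome 15, mm9). A value of 0 was shared with 24.1% of protein-coding names, and Cufflinks can write 0 where an estimate fails. The gene lies between entries that were also near 0, with Troap, 1333 bases away, at 0.0481 FPKM and Dnajc22, 5352 bases away, at 0.0391 FPKM.

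Cbln4 was the highest cerebellin gene at 0.713 FPKM, above 41.6% of protein-coding names. Its protein binds neurexins and is known from somatostatin interneurons and from cortical inputs to the hippocampus. C1ql1 exceeded it 6.53-fold and C1ql2 exceeded it 156-fold. Its entry spans 171861733 to 171868966 on the minus strand of chromosome 2 in mm9, and the next entries on both sides, the noncoding Gm14641 and Gm14271, were listed at 0. Of 6 markers of GABAergic interneurons, 5 were at 1 FPKM or more, a level met by 56.4% of protein-coding names. The 6 markers summed to 249 FPKM. Sst, the somatostatin gene, was at 109 FPKM, 153 times Cbln4, Gad1 was at 87.1 FPKM with a short listed transcript of 398 nt, and Lhx6 was lowest at 0.444 FPKM. Which cells carried Cbln4 was not tested.

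The other 3 cerebellin genes were lower still. Cbln2, which is expressed in many forebrain and thalamic projection neurons, was at 0.212 FPKM, above 36.1% of protein-coding names. On chromosome 18 its nearest entries were Neto1, 209212 bases away at 13.8 FPKM, and Gm5096, 1038071 bases away and listed at 0. Neto1 encodes an auxiliary subunit of kainate receptors. Cbln1, the cerebellar founder of the family, was at 0.0787 FPKM, above 32.4%. Its entry spans 89992761 to 89996508 on the minus strand of chromosome 8 in mm9, and a second entry with the same symbol, inside that span, was listed at 0, so their sum equalled the first. The predicted gene Gm2694 starts 202 bases beyond it and was at 0.104 FPKM, and the next entry on the other side, the pseudogene Rps13-ps1, was 420686 bases away at 80.7 FPKM. Cbln3, a cerebellar granule cell gene whose product depends on Cbln1 for secretion, was at 0.0594 FPKM, above 31.5%, with its entry at 56497757 to 56503093 on the minus strand of chromosome 14 in mm9. Beside it Khnyn, 712 bases away, was at 2.49 FPKM and Gm17588 at 0.393 FPKM. Cbln4 exceeded Cbln2 by 3.36-fold, Cbln2 exceeded Cbln1 by 2.69-fold and Cbln1 exceeded Cbln3 by 1.33-fold, and at such low levels, without replicate values, neighbours in this order could not be separated.

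Multiplying a value by the transcript length in kilobases gives a quantity that scales with fragments if the value belongs to the listed transcript, which the table does not state, and this was used to see how thin the low values were. It was 0.220 for Cbln1, 0.289 for Cbln3, 0.525 for Cbln2, 2.07 for Cbln4, 6.85 for C1ql1, 223 for C1ql2 and 258 for C1ql3. On this scale C1ql3 lay above C1ql2, the reverse of their order in FPKM, because its transcript is longer. Among 1692 genes above 0 with a single annotated transcript over 1500 nt, 433 had a lower product than Cbln1. Only the low end of these products was binned, and there the fullest bin, 0.015 to 0.02, held 63 genes and the next bin 60. Whole reads were not recovered from these values.

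**Figure D3:**
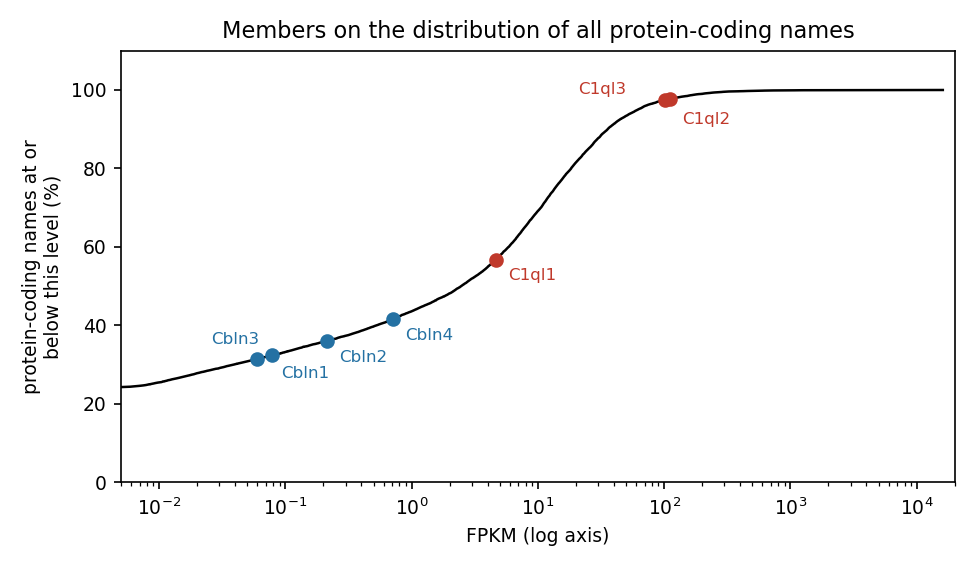
Cumulative distribution of FPKM over 20135 protein-coding names (black line; x axis, FPKM on a log scale; y axis, percent of names at or below that level), with the 7 members above 0 placed on it, C1q-like genes in red and cerebellin genes in blue. C1ql2 and C1ql3 sit near the top (97.7% and 97.4%), C1ql1 near the middle (56.8%) and the cerebellin genes between 31.5% and 41.6%.

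Most markers of the structures in which cerebellins are best known were under 1 FPKM, but each list had at least 1 above it. Of 5 cerebellar granule cell markers, Gabra6 and Fat2 were listed at 0, Barhl1 and Barhl2 were at 0.0202 and 0.127 FPKM, and Zic2 was at 3.35 FPKM. For Purkinje cells, Pcp2 was at 0.0168 FPKM and Car8 at 0.692 FPKM, whereas Itpr1, an inositol trisphosphate receptor gene that forebrain neurons also express, was at 38.6 FPKM. Of 6 thalamic markers, 2 were at 1 FPKM or more (Ntng1 at 9.69 FPKM and Lhx9 at 6.44 FPKM), a level met by 56.4% of protein-coding names. Slc17a6 and Prkcd were at 0.686 and 0.675 FPKM, and Gbx2 and Tcf7l2 were at 0.0358 and 0.0398 FPKM. The list sum was 17.6 FPKM. The part of such cells in the cerebellin values was not tested. The listed transcripts of Zic2, Itpr1, Ntng1 and Tcf7l2 were not found in GENCODE M21, so their form was not checked.

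Markers of the dissected region were high beside C1ql2 and C1ql3. Of 6 granule cell markers, 5 were at 10 FPKM or more, a level met by 30.8% of protein-coding names. Highest of the 6 was Calb1 (77.4 FPKM), whose product binds calcium. It was followed by the granule cell transcription factor gene Prox1 (44.8 FPKM) and the desmosomal gene Dsp (43.3 FPKM), while Dock10 was lowest (0.137 FPKM). C1ql2 exceeded Prox1 by 2.49-fold, a ratio that carries a limit because the listed Prox1 transcript is 0.415 of the longest coding one, and the ratio was 5.99 when rescaled to that length. Mossy cell markers, which matter because hilar mossy cells are a neighbouring excitatory type, ran from Calb2 at 53.0 FPKM and Ajap1 at 9.38 FPKM to Drd2 at 0.173 FPKM. CA pyramidal markers ranged from 0 (Pou3f1) and 0.378 FPKM (Map3k15) to 8.81 FPKM (Wfs1) and 12.9 FPKM (Bok). The listed transcripts of Calb2, Drd2 and Pou3f1 were not found in GENCODE M21, so their form was not checked. Astrocyte markers summed to 926 FPKM, with Aldoc at 511 and Slc1a3 at 192 FPKM, and microglial markers to 58.8 FPKM, with Csf1r at 34.1 and Cx3cr1 at 10.9 FPKM. In both lists 4 of 4 markers reached 1 FPKM, a level met by 56.4% of protein-coding names. Within the astrocyte sum, Gfap was at 186 FPKM, with a noncoding listed transcript that is 0.134 of the longest coding one. The listed transcript of the astrocyte marker Aqp4 was not found in GENCODE M21. Which cells carried C1ql2 and C1ql3 was not tested.

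Receptors of the C1q-like proteins were expressed in the same tissue. Adgrb3, which encodes BAI3, was at 33.8 FPKM, above 89.3% of protein-coding names. C1ql2 exceeded it 3.29-fold and C1ql3 exceeded it 3.01-fold, whereas Adgrb3 exceeded C1ql1 by 7.27-fold. The listed Adgrb3 transcript is 0.542 of the longest coding one, so these ratios are uncertain, and rescaled to that length they were 6.08, 5.56 and 3.94. The paralogs Adgrb2 and Adgrb1, which encode related brain adhesion receptors, were higher at 155 and 69.9 FPKM. The kainate receptor subunit genes Grik4 and Grik2, whose products are gathered at CA3 mossy fibre synapses by C1ql2 and C1ql3, were close together at 16.9 and 14.8 FPKM in the dentate gyrus itself. The CA3 cells that carry those receptors lie outside the labelled tissue. These values describe the dissected tissue and cannot be read as levels in those CA3 cells.

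Neurexins, the presynaptic partners of cerebellins and, for neurexin 3, of C1ql2 and C1ql3, were compared next. Nrxn2 was at 93.4 FPKM. Nrxn3 was at 1.13 FPKM, so that Nrxn2 exceeded it 82.4-fold, but the listed Nrxn3 transcript is a retained-intron form, and the table does not show whether its value stands for the gene. The table also does not show which alternatively spliced neurexin forms were present, on which binding of both ligand families depends. The RNA-binding proteins Sam68, SLM1 and SLM2 set the splicing of a neurexin segment needed for cerebellin binding, and their genes Khdrbs1, Khdrbs2 and Khdrbs3 were at 47.1, 8.13 and 28.0 FPKM. The listed Khdrbs1 transcript is annotated as a target of nonsense-mediated decay, and that of Khdrbs2 is 0.432 of the longest coding one.

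For the cerebellins, RNA of the receptor gene examined was more abundant in the dissected tissue than RNA of the ligand genes. Grid1, which encodes the forebrain delta receptor GluD1, was at 13.9 FPKM. It exceeded the sum of all 4 cerebellin genes, 1.06 FPKM, by 13.1-fold, whereas the C1q-like genes together exceeded their receptor gene Adgrb3 by 6.45-fold, or 11.9-fold when rescaled as above. Cortical cells that send inputs to the hippocampus, a known source of Cbln4, lie outside the labelled tissue. These ratios therefore cannot be read as receptor against all ligand that reaches dentate synapses. Neo1 and Dcc, the netrin receptor genes whose products have been tied to Cbln4, were at 17.1 and 1.94 FPKM. The listed transcripts of Neo1 and Grik2 were not found in GENCODE M21, so their form was not checked.

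**Figure D4:**
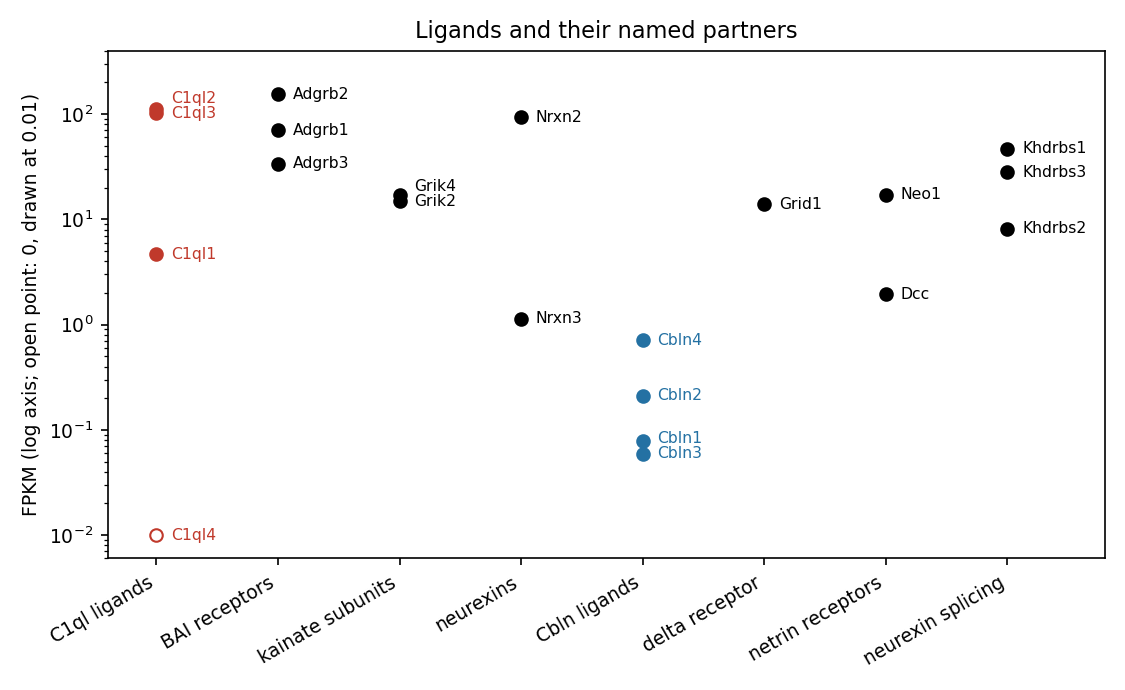
FPKM on a log axis of each ligand gene (C1q-like in red, cerebellin in blue) and of each partner gene (black), in columns by role, 1 point per gene and no error bars. C1ql2 and C1ql3 lie above Adgrb3 (33.8) and the kainate subunit genes (14.8 and 16.9), and all cerebellin genes lie below the delta receptor gene Grid1 (13.9).

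Among the genes that encode a C1q domain, the 2 highest were members. With the 22 others listed, 30 genes were compared, and C1ql2 and C1ql3 held ranks 1 and 2, followed by C1qtnf4, a secreted C1q and TNF related gene, at 90.1 FPKM. C1ql2 exceeded it by 1.24-fold. The listed C1qtnf4 transcript was not found in GENCODE M21, so its form was not checked, and with 1 value per gene the order of these 3 genes could not be judged. The complement genes C1qb, C1qa and C1qc, made in brain by microglia, were at 38.9, 38.8 and 27.0 FPKM, so that C1ql2 exceeded C1qb by 2.86-fold. C1ql1 ranked 9 and Cbln4 ranked 11. Of the 22 other genes, 7 reached 1 FPKM and 4 were listed at 0, and their median was 0.301 FPKM. Among protein-coding names, 56.4% reached 1 FPKM and 24.1% were listed at 0.

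**Figure D5:**
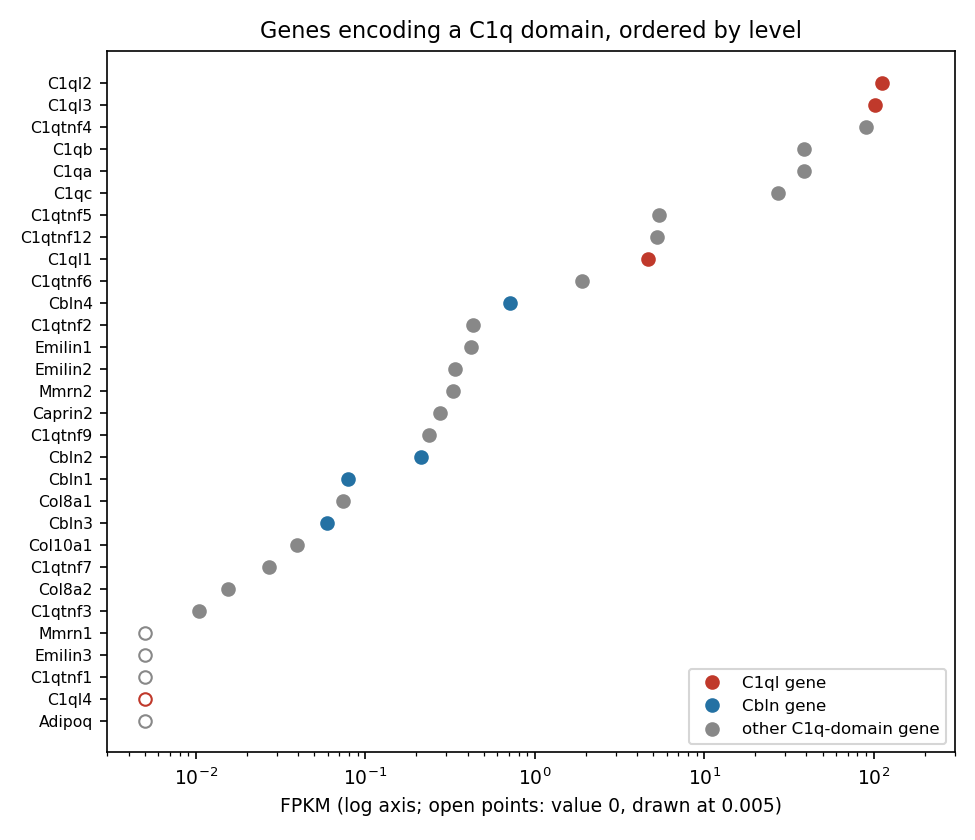
FPKM on a log axis of 30 genes that encode a C1q domain, ordered from lowest (bottom) to highest (top), C1q-like genes in red, cerebellin genes in blue and others in grey, open points standing for 0. C1ql2 (111) and C1ql3 (102) are at the top, ahead of C1qtnf4 (90.1) and the complement genes, and the cerebellin genes lie from Cbln4 (0.713, rank 11 of 30) down to Cbln3 (0.0594).

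Other proteins that organize synapses gave a scale for these levels. Of 21 other secreted organizers, 14 reached 1 FPKM, a level met by 56.4% of protein-coding names. At 10 FPKM or more were 7 of the 21, 30.8% of protein-coding names and 2 of the 8 members. The median of the 21 was 3.90 FPKM. Sparcl1, the astrocyte protein hevin, was highest at 453 FPKM, and Nptx1, a neuronal pentraxin that clusters AMPA receptors, was at 151 FPKM. These were the only 2 of the 21 above C1ql2. All 9 other neurexin ligands reached 1 FPKM (56.4% of protein-coding names did). Their median was 25.1 FPKM, and they were led by the calsyntenin gene Clstn3 at 64.5 FPKM and Lrrtm1 at 56.6 FPKM. C1ql2 and C1ql3 lay above each of these 9 genes, and all 4 cerebellin genes lay below each of them, the lowest being Nlgn3 at 2.05 FPKM. The listed Nlgn3 transcript is a noncoding form, and that of Lrrtm1 is annotated as a target of nonsense-mediated decay. These lists say nothing on protein amounts.

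Because the study as a whole concerned DNA methylation, CG dinucleotides were counted in the 250 bases before the RefSeq start of each member for which a promoter window was at hand (C1ql2, C1ql3, C1ql4, Cbln3 and Cbln4, GRCm38.p6). The count was 20 for C1ql2, 23 for C1ql3, 26 for C1ql4, 11 for Cbln4 and 2 for Cbln3. Over 32851 such windows of the same length the median was 6, and 92.1% held at least 1 CG. A count as high as that of C1ql2 was met in 17.9% of them, and one as high as that of Cbln4 in 35.6%. C1ql4, listed at 0, had the highest of these 5 counts, in a window that lies partly inside its own transcripts. A relation of count to level was not tested. The windows of C1ql3, C1ql4 and Cbln3 reach into GENCODE M21 transcripts of the same gene, by 250, 89 and 136 bases, so only those of C1ql2 and Cbln4 are shown, as the highest member and the highest cerebellin, at chr1:120340332-120340581 (plus strand) and chr2:172043467-172043716 (minus strand). Both are read 5′ to 3′ on the strand of the gene, and capitals mark each CG.
C1ql2: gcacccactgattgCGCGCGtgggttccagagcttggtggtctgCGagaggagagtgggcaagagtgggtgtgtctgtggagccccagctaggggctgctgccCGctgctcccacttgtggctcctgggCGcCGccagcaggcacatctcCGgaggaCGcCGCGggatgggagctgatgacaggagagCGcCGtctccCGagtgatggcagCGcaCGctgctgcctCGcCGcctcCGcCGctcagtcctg
Cbln4: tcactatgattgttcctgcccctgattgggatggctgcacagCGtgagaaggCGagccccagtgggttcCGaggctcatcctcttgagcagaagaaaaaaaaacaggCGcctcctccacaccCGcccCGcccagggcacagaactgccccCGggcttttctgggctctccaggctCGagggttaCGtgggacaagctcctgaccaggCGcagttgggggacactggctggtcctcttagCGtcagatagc

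No methylation was measured in the data analysed here, and a CG in these windows is a description of the reference sequence.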

How the data were processed

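The values are FPKM as deposited by the authors, in 1 column for the whole wild-type group. The submitters' processing notes name TopHat, Cufflinks and the builds mm9 and NCBIM37. The sources used here give neither the tool versions nor whether the 3 libraries were pooled or averaged. The table has 37681 entries, of which 1212 were blank and left out. Entries that share a symbol were summed, and starts were converted to 1-based positions. Gene and transcript types and lengths came from GENCODE M21 by identifier. For all 8 members the listed transcript is a coding form, and for 7 it is the longest. All 112 names in 9 gene lists and 10 marker lists were found, 1 by identifier. All 8 members are named, as are the genes of the receptor and splicing lists (2 of them are not reported here), at least the 2 highest of every other list (for C1q-domain genes those that are not members) and the nearest entries on the chromosome, and other names were chosen after their values were seen. Likeness of pattern between genes could not be measured with 1 column. Members and lists were chosen with earlier results of these data known. No test was run, since the table has no replicate values. Coding sequences were aligned with mafft 7.526. The handling of shared symbols and blanks, the percentiles and the log2 difference were tested on simulated data. The sequence, neighbour and length steps were not. Software was numpy 2.4.6, pandas 2.3.3 and matplotlib 3.10.9 under Python 3.11.15. Alternatives changed the pseudocount, the minimum FPKM, the summary, the set ranked against, shared symbols and transcript length.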

Additional observations from a re-analysis of the deposited data

How the results depend on the processing

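Of the 8 members, 3 reached 1 FPKM, 4 reached 0.5 FPKM and 3 reached 2 FPKM. Cbln4, at 0.713 FPKM, was counted only at the minimum of 0.5 FPKM. Among the 8 members, taking the highest entry for shared symbols moved no level or ratio between members by over 1.5 times, and rescaling to the longest coding transcript moved no level, share or ratio between members by that much. The same rescaling, applied to other genes after the data were seen, moved C1ql2 to Adgrb3 to 6.08, C1ql3 to Adgrb3 to 5.56, the C1q-like sum to Adgrb3 to 11.9, Adgrb3 to C1ql1 to 3.94 and C1ql2 to Prox1 to 5.99, with no change of direction. The log2 difference between the family medians kept its sign, at 4.40 with a pseudocount of 1 FPKM, 7.28 with 0.01 FPKM and 4.88 between means of log2 values, against 6.54. Percentiles of the low members depended on the names ranked. Among all names Cbln1 stood at 49.7, Cbln3 at 48.7 and C1ql4, tied at 0, at 20.2 in place of 12.1. Among protein-coding names above 0 Cbln4 stood at 23.1, Cbln2 at 15.7, Cbln1 at 10.9 and Cbln3 at 9.64. At a minimum of 0.5 FPKM the count of thalamic markers was 4 in place of 2. The count of Purkinje cell markers at that minimum was 2 in place of 1. With genes at 0 left out, the median of the cerebellar granule cell markers was 0.127 FPKM in place of 0.0202 FPKM. Leaving out a library was not run, since the table has no values per library. No paired analysis was possible because there is 1 group and 1 column of values. The unknown depth limits what can be said of values under 1 FPKM.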
